A study of Homo sapiens with 6 samples.

Results

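Forkhead (FOX) transcription factors were examined in U87 cells, an established human glioma line grown as an adherent culture, after knockdown of PCGF1. The members were every gene named by exactly 1 symbol on a probe set of the array annotation in which FOX is followed by a letter from A to S and a number, antisense names left out. This gave 43 genes read by 88 probe sets, of 18132 genes and 49293 probe sets in all. Another 8 probe sets that carry several symbols, a FOX gene among them, were not used. The 6 Affymetrix arrays held biotin-labelled cRNA from 3 samples of U87-PCGF1-shRNA cells, in which a lentiviral short hairpin RNA targets the PCGF1 transcript, and 3 samples of U87-NC cells, which received a negative control lentivirus. All cells carried a lentivirus, and the control was not an untreated culture. The labels call the 3 samples of a group biological replicates without naming separate cultures; the p-values below therefore reflect the variation among these 6 samples, part of which may be technical. The sample names also carry T0 in every knockdown and T1 in every control, unexplained, and whatever these marks stand for cannot be told apart from the knockdown.

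All forkhead factors share a winged-helix DNA binding domain, and the subfamily letter follows relatedness within that domain. PCGF1 is the RING finger subunit that defines the Polycomb complex PRC1.1, which is brought to unmethylated CpG islands by the zinc finger protein KDM2B and places ubiquitin on histone H2A. Many forkhead genes that pattern the embryo are textbook Polycomb targets and are silent outside their own lineage, whereas the FOXO, FOXP, FOXK and FOXM1 genes act in nutrient signalling, cell cycle and differentiation in many adult cells. The members were therefore set out in 3 classes by subfamily letter. The developmental class held 23 measured genes of the subfamilies FOXA to FOXF, FOXI, FOXL, FOXQ and FOXS, the FOXO, FOXP, FOXK and FOXM1 class held 10, and the remaining FOXH, FOXJ, FOXN and FOXR genes numbered 10. The classes rest on general knowledge, since Polycomb binding was not measured on these arrays.

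PRC1.1 is known for its preference for CpG-rich DNA, so the RefSeq promoters (GRCh38.p14) of the 4 members with a called gene or probe set are shown first, as the 250 bases upstream of the RefSeq start, 5′ to 3′, with each CG dinucleotide in capitals. FOXN3 lies on the minus strand with its window at chr14:89619166-89619415, FOXA3 on the plus strand at chr19:45864076-45864325, FOXJ2 on the plus strand at chr12:8032466-8032715 and FOXP1 on the minus strand at chr3:71583729-71583978.
FOXN3: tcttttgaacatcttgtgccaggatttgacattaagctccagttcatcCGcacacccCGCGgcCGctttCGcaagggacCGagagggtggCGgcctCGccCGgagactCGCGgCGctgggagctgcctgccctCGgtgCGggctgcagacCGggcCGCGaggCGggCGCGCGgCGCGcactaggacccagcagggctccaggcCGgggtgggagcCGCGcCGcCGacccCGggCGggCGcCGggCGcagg
FOXA3: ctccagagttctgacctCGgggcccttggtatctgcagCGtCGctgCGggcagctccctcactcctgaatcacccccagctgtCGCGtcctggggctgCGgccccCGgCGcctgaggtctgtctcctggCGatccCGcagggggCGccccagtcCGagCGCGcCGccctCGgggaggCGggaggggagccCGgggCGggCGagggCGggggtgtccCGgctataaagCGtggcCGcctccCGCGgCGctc
FOXJ2: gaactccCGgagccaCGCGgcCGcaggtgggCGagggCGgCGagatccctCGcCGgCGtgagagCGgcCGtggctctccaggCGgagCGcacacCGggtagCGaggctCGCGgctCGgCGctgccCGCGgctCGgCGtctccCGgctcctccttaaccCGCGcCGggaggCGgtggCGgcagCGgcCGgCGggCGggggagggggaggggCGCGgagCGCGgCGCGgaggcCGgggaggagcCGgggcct
FOXP1: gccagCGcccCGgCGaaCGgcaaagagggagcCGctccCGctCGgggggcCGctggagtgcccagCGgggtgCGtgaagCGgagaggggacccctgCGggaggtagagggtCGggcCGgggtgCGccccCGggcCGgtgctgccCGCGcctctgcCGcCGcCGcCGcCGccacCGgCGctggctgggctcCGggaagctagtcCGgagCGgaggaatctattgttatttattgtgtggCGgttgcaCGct
These windows held 33 CG dinucleotides in FOXN3, 28 in FOXA3, 42 in FOXJ2 and 31 in FOXP1, against a median of 18 over the 14425 promoters of genes on the array that were in the promoter table. A promoter was found for 33 of the 43 members. For each gene only the first listed window was used, and any other start of that gene was not examined. The median count was 20 for 17 developmental members, 27 for 9 FOXO, FOXP and FOXK members and 14 for 7 of the remaining class, with a range of 0 to 44 over all 33. Of the 29 other members with a promoter, 5 held at least the 28 of FOXA3, namely FOXK1, at 44, FOXK2, at 43, FOXO3, at 42, FOXI3, at 31, and FOXQ1, at 29. The other 24 held fewer, down to 0 in FOXP2, and the median of the 29 was 19. The 4 shown were chosen by their calls, so this is a description of them. The forkhead core motif TGTTTAC, searched on both strands, was in 0 of the 33 windows and in 2.16% of the 14425.

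Few forkhead genes differed between the knockdown and the control arrays, and the differences were small. FOXN3 and FOXA3 rose, to 130.7% and 119.6% of the control level, and 41 members did not pass the test. The threshold was an adjusted p under 0.05 (limma on probe set averages, Benjamini-Hochberg over all 18132 genes). By that rule 2 of 43 members were higher and 0 were lower, while over all genes 11.0% were called, 6.36% higher and 4.63% lower. At an unadjusted p under 0.05, 3 members were higher and 1 was lower, where 14.2% of all genes were higher and 12.4% lower. The median log2 difference of the 43 members was -0.01, the same as that of all genes, and the median absolute difference was 0.05 against 0.07 for all genes. Groups did not overlap for 6 of the 43 members, 5 higher and 1 lower, where 32.7% of all genes had groups that did not overlap.

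The 95% intervals limited how large a missed difference in the gene averages could be. For all 43 members the interval stayed within 1.5-fold in either direction, and for 35, or 81.4%, it stayed within 1.2-fold, against 74.8% of all genes. The widest reach was that of FOXN3 itself, at 1.39-fold. Intervals of single probe sets could reach further, to log2 differences of 0.64 for 11740362_a_at of FOXN3 and 0.56 for 11755772_a_at of FOXO1. Each deposited value is a log2 signal relative to the median of the 6 arrays for that probe set, so it shows differences between arrays but not whether a gene is expressed above background. A silent gene read at background would also give a small difference, and the 2 cases cannot be told apart in these values. The signal of the 1 probe set for PCGF1, the gene that the shRNA targets, fell in the shRNA samples, to 74.3% of that in the control samples (log2 difference -0.43, SE 0.06, adjusted p = 0.00410 by limma, groups not overlapping).

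**Figure D1:**
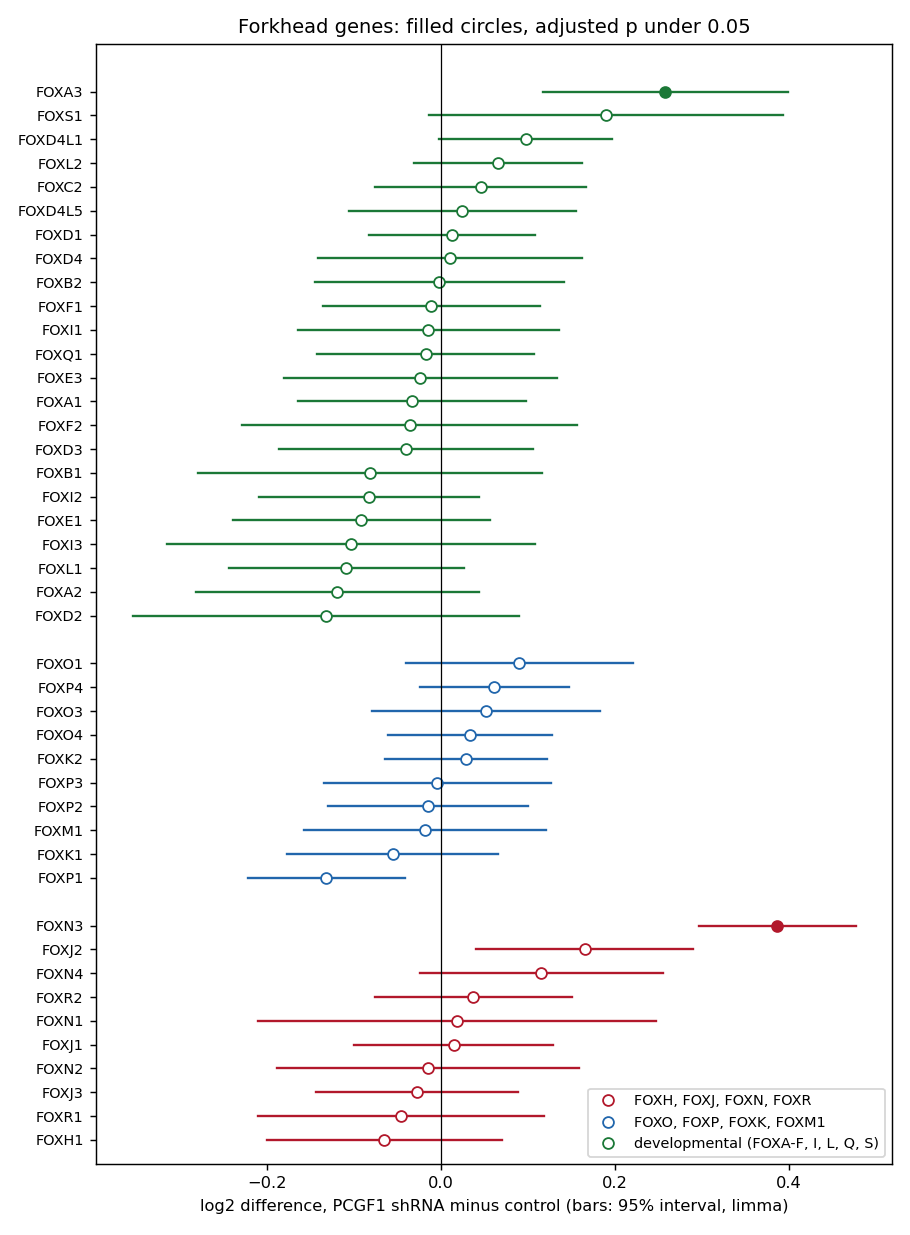
Log2 difference of each of the 43 forkhead genes, knockdown minus control, with its 95% interval from limma (3 arrays per group), ordered by size within the 3 classes. FOXN3 and FOXA3, the filled circles, passed the test, FOXP1 and FOXJ2 had intervals that excluded 0 without passing, and the rest scattered around 0.

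FOXN3, a forkhead repressor linked to the DNA damage checkpoint, gave the largest difference of the family. Its log2 values were 0.23, 0.19 and 0.16 in knockdown replicates 1 to 3 and -0.16, -0.22 and -0.19 in control replicates 1 to 3. All 3 knockdown arrays lay well above all 3 control arrays, and the spread within a group (SD 0.03 in each) was far below the gap between the group means of 0.20 and -0.19. The log2 difference was 0.39 ± 0.04 (SE, n = 3 per group, limma adjusted p = 0.00126), with a 95% interval from 0.30 to 0.48. FOXN3 was number 271 of 18132 genes by absolute difference. The call held under all 13 alternative settings, with log2 differences from 0.35 to 0.47 and adjusted p from 0.00111 to 0.0130.

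The 4 probe sets of FOXN3 all read higher in the knockdown arrays but not by the same amount. Tested over all 49293 probe sets, 11740361_s_at rose by 0.49 (adjusted p = 0.00415 by limma), 11740362_a_at by 0.47 (adjusted p = 0.0110) and 11717621_a_at by 0.47 (adjusted p = 0.00809). The other, 11740360_a_at, had a log2 difference of 0.12 with an interval from -0.00 to 0.24 and did not pass (adjusted p = 0.226), although its groups did not overlap either. Its values were 0.06, 0.04 and 0.03 in the knockdown arrays and -0.03, -0.15 and -0.04 in the controls. Its interval lay wholly below those of the other 3, whose lower ends were at 0.30 to 0.35. The transcripts that each probe set reads were not analysed here.

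FOXA3, also called hepatocyte nuclear factor 3 gamma, is a pioneer factor of liver and gut and the single developmental member that passed the test. The 1 probe set that reads it was at 0.25, 0.08 and 0.06 in the knockdown arrays and at -0.16, -0.06 and -0.16 in the control arrays. Knockdown replicate 1 was the highest, and every knockdown array lay above every control array. The log2 difference was 0.26 ± 0.06 (SE, n = 3 per group, adjusted p = 0.0352 by limma), with a 95% interval from 0.12 to 0.40. This call was borderline. It did not survive the removal of any single array (adjusted p 0.0514 to 0.103) and when the same probe set was tested among all 49293 (adjusted p = 0.0603). Blocking on replicate number ended it too (adjusted p = 0.0732), as did taking the most variable probe set of every gene (adjusted p = 0.0739). The difference itself stayed between 0.20 and 0.30 in all 13 alternatives. Over all genes, too, fewer were called with 1 array removed, 553 to 812 higher and 395 to 590 lower, against 1154 and 840 with all 6.

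The other FOXA genes did not pass the test. FOXA1, a pioneer factor of hormone-responsive epithelia, had a log2 difference of -0.03 over 2 probe sets. FOXA2, which acts in liver, lung and floor plate, was at 0.01, -0.01 and -0.01 in the knockdown arrays and at 0.14, 0.25 and -0.05 in the controls. Its knockdown values were tightly grouped within the much wider range of the controls, and the difference of -0.12 did not pass (adjusted p = 0.331 by limma).

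Among the other developmental genes the widest differences came with wide spread. FOXS1, a factor of neural crest and perivascular cells, was at -0.04, 0.14 and 0.33 in the knockdown arrays and at -0.02, -0.14 and 0.02 in the controls. The groups overlapped, and the log2 difference of 0.19 did not pass (adjusted p = 0.217). FOXD2 was at 0.04, -0.04 and -0.09 in the knockdown arrays and at 0.33, 0.07 and -0.09 in the controls. Control replicate 1 alone was high, and the difference of -0.13 did not pass (adjusted p = 0.434 by limma). The nearly identical genes FOXD4, FOXD4L1 and FOXD4L5 were read by 1 probe set each that may pick up the others, so their values of 0.01, 0.10 and 0.02 are uncertain as values of single genes. The mesenchymal factor genes FOXC2, FOXF1, FOXF2 and FOXL1 were at 0.05, -0.01, -0.04 and -0.11. FOXD1, FOXD3 and FOXQ1, which act in kidney stroma, neural crest and epithelia, were at 0.01, -0.04 and -0.02. The last 8 developmental members, FOXB1, FOXB2, FOXE1, FOXE3, FOXI1, FOXI2, FOXI3 and FOXL2, lay between -0.10 and 0.06.

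The developmental class as a whole showed no shift that was stable against 1 array. Its median log2 difference was -0.02, with 15 of 23 genes below 0, against a median of -0.01 and 9675 of 18132 genes below 0 in the whole table. Control replicate 1 was the highest of the 6 arrays for 10 of the 23 genes, or 43.5%, whereas it was the highest for 20.3% of all genes. Those 10 were FOXA1, FOXB1, FOXB2, FOXC2, FOXD2, FOXD3, FOXE3, FOXI1, FOXI3 and FOXL1. The class median was 0.07 on that array and between -0.02 and 0.02 on the others. Without it, 9 of the 23 genes were below 0 and the median turned to 0.01.

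**Figure D2:**
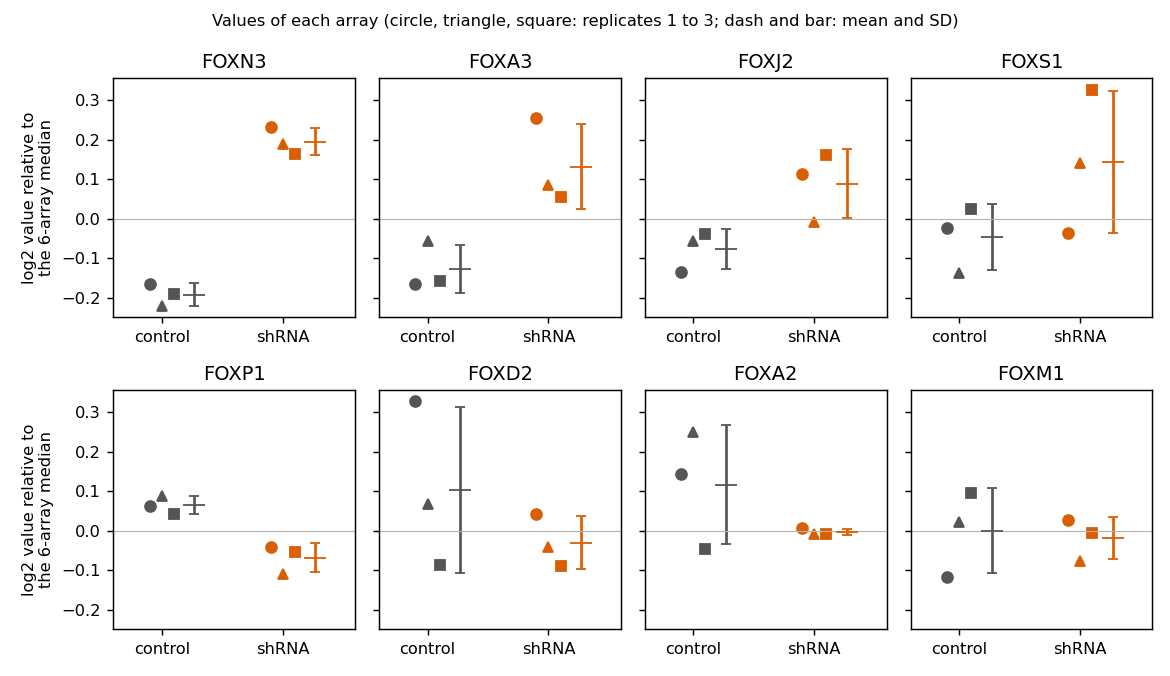
Log2 value of 8 forkhead genes on each array, relative to the median of the 6 arrays, for control and PCGF1 shRNA samples; symbols mark replicates 1 to 3 and the dash with bar gives the mean and SD (n = 3). FOXN3 separates the groups with little spread, FOXA3, FOXJ2 and FOXP1 separate them by less, and FOXS1, FOXD2, FOXA2 and FOXM1 overlap.

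No gene of the FOXO, FOXP, FOXK and FOXM1 class passed the test, with 0 of 10 called by limma and 1, FOXP1, at an unadjusted p under 0.05. Over all genes 11.0% were called, and 26.6% had an unadjusted p under 0.05. The median log2 difference of the class was 0.01, and all 10 intervals of the gene averages lay within 1.17-fold of no difference. Those of single probe sets could be wider, from -0.11 to 0.56 for 11755772_a_at of FOXO1. FOXP1 came closest to passing. It encodes a transcriptional repressor that acts in lymphoid, cardiac and neural development. Its log2 values, averaged over 12 probe sets, were -0.04, -0.11 and -0.05 in the knockdown arrays and 0.06, 0.09 and 0.04 in the controls. The groups did not overlap, and the difference was -0.13 ± 0.04 (SE, n = 3 per group, adjusted p = 0.0698 by limma). It was below 0 under all 13 alternatives and was called in 0 of them (adjusted p 0.0671 to 0.213).

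The 12 probe sets of FOXP1 did not move together. Differences were below 0 in 10 of them, and in 8 of these every knockdown array lay under every control array. Groups did not overlap for 32.7% of all genes, and the share over all probe sets is not given here. At the level of single probe sets 7.24% of the 49293 were called, 4.30% higher and 2.94% lower, and of the 88 forkhead probe sets 4 were higher and 1 was lower. The 1 lower probe set was 11732279_at of FOXP1, at -0.08, -0.14 and -0.07 in the knockdown arrays and 0.13, 0.17 and 0.07 in the controls. It fell by 0.22 (SE 0.05, adjusted p = 0.0452 by limma), which no fit with 1 array removed called (adjusted p 0.0783 to 0.137), nor did the replicate block (adjusted p = 0.117). In contrast 11730666_at and 11730665_a_at had differences of 0.19 and 0.07, neither of which passed (adjusted p = 0.185 and 0.567). The average over the gene therefore combined readings of opposite sign. Probe sets of 1 gene read the same RNA samples and overlapping transcripts, and are not replicates.

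FOXP2, a factor of speech circuits and lung, was at 0.02, -0.01 and 0.02 in the knockdown arrays and 0.10, 0.04 and -0.07 in the controls. FOXP3, the master factor of regulatory T cells, was at -0.02, -0.08 and 0.04 against 0.03, -0.12 and 0.04. The groups overlapped for both, and their log2 differences of -0.02 and -0.00 were within the spread of the arrays. FOXP4 was at 0.04, 0.05 and -0.00 in the knockdown arrays and -0.01, -0.03 and -0.05 in the controls. Its groups did not overlap, but the difference of 0.06 did not pass (adjusted p = 0.346 by limma).

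The FOXO genes encode the factors that AKT keeps out of the nucleus when growth factors are present, so their activity is set largely at the protein level. FOXO1 was at 0.06, 0.02 and 0.07 in the knockdown arrays and -0.16, 0.05 and -0.02 in the controls. FOXO3 was at 0.12, 0.00 and -0.04 against -0.11, 0.03 and 0.01. FOXO4 was at 0.07, 0.05 and -0.01 against 0.04, -0.00 and -0.03. In each of the 3 the groups overlapped, and the differences of 0.09, 0.05 and 0.03 did not pass (adjusted p 0.363 to 0.662 by limma). Probe sets disagreed here too. Those of FOXO1 ranged from -0.08 to 0.25, the highest being 11727929_a_at (adjusted p = 0.0507), and the 7 of FOXO4 from -0.17 to 0.15. FOXO3 was read by 3 probe sets, between -0.02 and 0.09, and has a near-identical copy, FOXO3B, so its value is uncertain.

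FOXK1 and FOXK2, which regulate autophagy and glycolysis genes under mTOR signalling, had log2 differences of -0.06 and 0.03. FOXK1 was at 0.00, 0.02 and -0.07 in the knockdown arrays and 0.04, -0.05 and 0.12 in the controls. FOXK2 was at 0.03, 0.00 and -0.03 against -0.04, -0.06 and 0.02. The groups overlapped for both. FOXM1, the forkhead activator of G2 and mitosis genes, was at 0.03, -0.08 and -0.00 in the knockdown arrays and -0.12, 0.02 and 0.09 in the controls. Its difference was -0.02 ± 0.06 (SE, n = 3 per group, adjusted p = 0.881 by limma) with a 95% interval from -0.16 to 0.12, and its 3 probe sets lay between -0.03 and -0.01.

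**Figure D3:**
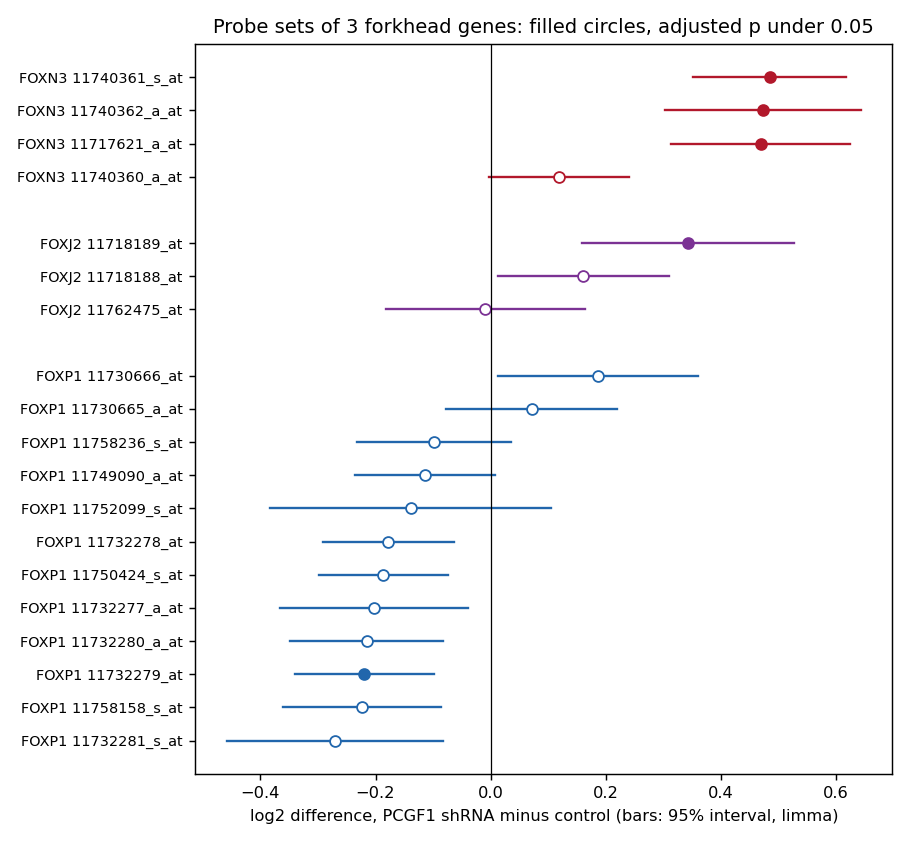
Log2 difference of each probe set of FOXN3, FOXJ2 and FOXP1, knockdown minus control, with its 95% interval from limma; filled circles passed an adjusted p under 0.05 over all 49293 probe sets. All 4 FOXN3 probe sets lie above 0, 10 of 12 FOXP1 probe sets lie below it, and those of FOXJ2 run from -0.01 to 0.34.

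In the remaining class FOXN3 was followed by FOXJ2, a widely expressed activator. FOXJ2 was at 0.11, -0.01 and 0.16 in the knockdown arrays and -0.13, -0.06 and -0.04 in the controls. The groups did not overlap, but the averaged difference of 0.16 ± 0.05 (SE, n = 3 per group) did not pass (adjusted p = 0.0941 by limma). The probe set 11718189_at rose by 0.34 (adjusted p = 0.0422), with 0.12, 0.07 and 0.32 against -0.22, -0.23 and -0.07, while 11718188_at and 11762475_at were at 0.16 and -0.01. None of the 6 fits with 1 array removed called 11718189_at (adjusted p 0.0565 to 0.124 by limma). The averaged gene passed without knockdown replicate 2 (adjusted p = 0.0483) and when its most variable probe set stood for it (adjusted p = 0.0466).

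FOXN4, a factor of retinal and spinal progenitors, was at -0.01, 0.04 and 0.01 in the knockdown arrays and -0.22, 0.02 and -0.10 in the controls. The groups overlapped, and the difference of 0.12 did not pass (adjusted p = 0.274 by limma). FOXN1, the thymic epithelial factor, FOXN2, FOXJ1, the activator of motile cilia genes, FOXJ3, FOXH1, a SMAD partner in Nodal signalling, FOXR1 and FOXR2 had log2 differences between -0.07 and 0.04. Over the family 25 genes were read by 1 probe set and 18 by several, and in 12 of those 18 the probe sets differed in sign.

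Genes that lie next to forkhead genes were looked up by name in RefSeq order. Of 64 measured protein-coding neighbours that are not members, 5 were higher and 0 were lower by limma, 7.81% in all, against the 11.0% over all genes, and 11 were higher and 5 lower at an unadjusted p under 0.05, where all genes gave 14.2% and 12.4%. The neighbours of FOXN3, TTC8 and EFCAB11, were at -0.08 and -0.13 and did not pass (adjusted p = 0.218 and 0.0923). Those of FOXA3, SYMPK and IRF2BP1, were at 0.08 and -0.04, also without passing. C3AR1, the complement C3a receptor gene next to FOXJ2, rose by 0.49 (SE 0.04, adjusted p = 0.000832 by limma). The other called neighbours were PRUNE2 next to FOXB2, AP5Z1 next to FOXK1, UNC119 next to FOXN1 and RRAGB next to FOXR2. They rose by 0.20, 0.20, 0.21 and 0.21, while these FOX genes, at -0.00, -0.06, 0.02 and 0.04, did not pass. FOXL2NB, the divergent neighbour of FOXL2, had a difference of -0.09 beside 0.06 for FOXL2, and neither passed.

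Genes known to act on FOXO proteins, or to be switched by FOXO or FOXM1, were counted from lists drawn from general knowledge. These lists were chosen with earlier results of these data known. Of 28 measured FOXO regulators 0 rose and 1 fell, or 3.57% against 11.0% of all genes, with a median log2 difference of 0.03. The 1 that fell was MAPK9, a JNK kinase, at -0.11, -0.13 and -0.11 in the knockdown arrays and 0.06, 0.12 and 0.08 in the controls (log2 difference -0.21, adjusted p = 0.0133 by limma). It did not pass without control replicate 2 (adjusted p = 0.0539) or with the replicate block (adjusted p = 0.0529). The FOXO regulators as a list thus lay near the median of all genes, -0.01, and at an unadjusted p under 0.05, 5 were higher and 4 lower, against 14.2% and 12.4% of all genes.

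FOXO target genes moved in both directions. Of 42 measured targets 3 rose, 6 fell and 33 did not pass, with a median of 0.00. These are 7.14% higher and 14.3% lower, against 6.36% and 4.63% of all genes. Leaving out 1 array gave 1 to 3 higher and 3 to 4 lower, with 3 lower without knockdown replicate 1 or control replicate 1, and 1 higher when the array left out was knockdown 2, knockdown 3, control 1 or control 3. The largest rise was that of FBXO32, the atrophy ubiquitin ligase also called atrogin-1, at 0.32, 0.25 and 0.19 in the knockdown arrays and -0.31, -0.24 and -0.19 in the controls. SESN1, a sestrin that restrains mTOR under stress, rose by 0.34, and GABARAPL1, an autophagosome protein, by 0.16. SESN1 needed each of knockdown 2, knockdown 3, control 1 and control 3 to pass (without one of them, adjusted p 0.0501 to 0.0596). GABARAPL1 kept its call on leaving out 1 array only without knockdown replicate 1, lost it with the replicate block (adjusted p = 0.0943), and was at 0.03 without _s_at and _x_at probe sets. The largest fall was that of IGFBP1, an insulin-like growth factor binding protein, at -0.25, -0.42 and -0.49 against 0.30, 0.38 and 0.25. CCND1, cyclin D1, which FOXO proteins repress, fell by 0.62, and TRIB1, a pseudokinase, by 0.39. For these genes the knockdown and control arrays did not overlap, and their adjusted p by limma lay between 0.000635 and 0.0381. FBXO32 and IGFBP1 are both targets that FOXO proteins activate, and they moved in opposite directions.

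Of the FOXM1 targets 14 of 31 fell, and FOXM1 itself did not pass the test. All 31 measured targets had log2 differences below 0, 0 rose and 17 did not pass (limma), with a median of -0.17 against -0.01 for all genes. The 14 are 45.2% of the list, against 4.63% of all genes lower. The number of listed targets called lower was 9 without knockdown replicate 3 or control replicate 2 and 11 to 12 without any other array. The targets called with an array left out need not all be among the 14. At an unadjusted p under 0.05, 21 of the 31 targets were lower and 0 higher, against 12.4% and 14.2% of all genes. PLK4, the kinase that starts centriole duplication, was at -0.26, -0.11 and -0.15 in the knockdown arrays and 0.20, 0.18 and 0.30 in the controls, a fall by 0.40. CCNB1, cyclin B1, was at -0.13, -0.18 and -0.20 against 0.19, 0.20 and 0.13. HMMR, the hyaluronan-mediated motility receptor, fell by 0.34. In bulk samples fewer dividing cells and less RNA per cell cannot be told apart. The list of FOXM1 partners held 9 genes of the MuvB complex and the MYB and E2F families, and not all of them need bind FOXM1. Of the 9, 1 rose, MYBL1, by 0.32 (adjusted p = 0.0155 by limma, and 0.0586 without knockdown replicate 1). None was called lower, with 2 lower at an unadjusted p under 0.05. Over all genes 6.36% were called higher and 4.63% lower, and 12.4% were lower at that unadjusted p. MYBL2, the B-MYB partner, was at -0.01.

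**Figure D4:**
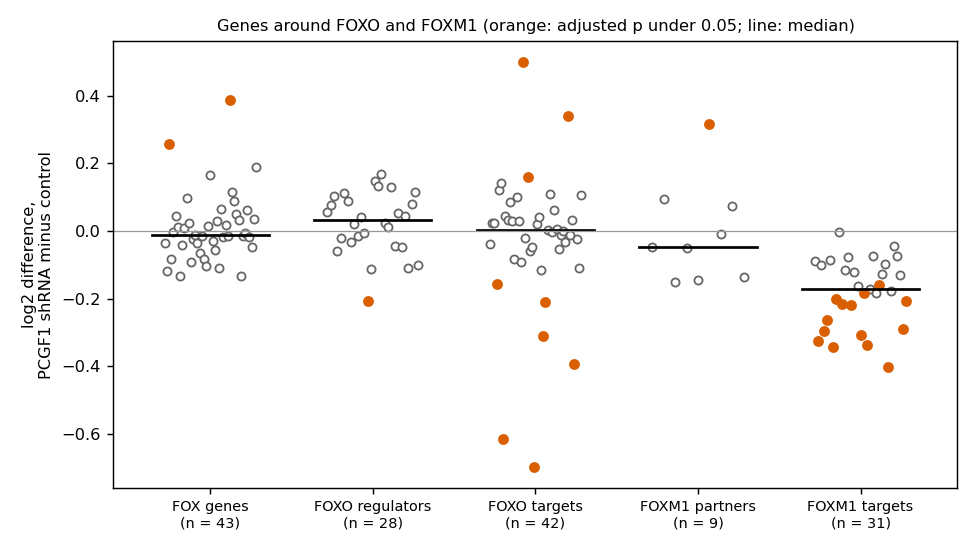
Log2 difference, knockdown minus control, of the 43 FOX genes and of the measured FOXO regulators, FOXO targets, FOXM1 partners and FOXM1 targets; orange points passed an adjusted p under 0.05 (limma) and lines are medians. FOX genes lie around 0 with 2 called members, and the 31 FOXM1 targets all lie below 0.

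In the whole table the groups separated along the first principal component (47.0% of the variance), and no arrays were duplicates. The labelled cell type could not be checked by level, since the table holds only differences. Of the marker lists, 3 of 4 mesenchymal markers rose (COL1A1, FN1 and PDGFRB) and THY1, at -0.15, did not pass (adjusted p = 0.268), while 0 of 8 astrocyte and glioma, 0 of 4 epithelial, 0 of 4 leukocyte and 0 of 4 endothelial markers were called by limma, with 1 epithelial marker higher and 1 endothelial marker lower at an unadjusted p under 0.05. Over all genes 6.36% were called higher and 4.63% lower, and 14.2% and 12.4% were higher and lower at that unadjusted p. PDGFRB needed each of knockdown 1, knockdown 2, control 2 and control 3 to pass (without one of them, adjusted p 0.0598 to 0.0767). The part of the mesenchymal difference in the FOXN3 and FOXA3 values was not tested.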

How the data were processed

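Total RNA of 6 samples, 3 with PCGF1 knockdown and 3 controls, was hybridised to Affymetrix arrays. RMA is the 1 tool that the submitters' processing notes name, with no version given. The authors' deposited table holds log2 values by the naming of RMA, and each probe set had been centred on the median of its 6 arrays (largest departure 4.85e-07) by a step no source describes. All 6 columns were used, without further normalization. After 102 control probe sets were removed, 49293 remained, of which 44988 had 1 gene symbol, 1832 several and 2473 none. Gene values are means over single-symbol probe sets. Groups were compared with limma 3.58.1 in R 4.3.3 (lmFit, eBayes, two-sided, no covariates), with Benjamini-Hochberg adjustment over all genes or all probe sets, and checked on simulated data. Lists were counted, not tested. Promoters came from the RefSeq table. The number of arrays limits precision. Genes given by array were those called in either fit, the FOXO, FOXP, FOXK and FOXM1 genes and the 6 uncalled members of largest difference; of each list, at most 3 called genes in each direction. Genes outside this rule (the mentioned neighbours of FOXN3, FOXA3 and FOXJ2, the called neighbours of other members, and MYBL2) were chosen after their values were seen. Members and lists were chosen with earlier results of these data known. Alternatives were quantile normalization, median centring, the most variable probe set, leaving out _s_at and _x_at probe sets, a replicate block, array weights, robust eBayes and leaving out each array.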

Additional observations from a re-analysis of the deposited data

How the results depend on the processing

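FOXN3 kept its call under all 13 alternatives and 0 forkhead genes were called lower in any of them. Of the 41 members not called, 1, FOXJ2, was called under some alternative, and 22 changed sign under at least 1, all without a call. With 1 array left out, 1 to 2 members were called higher, 0 to 1 forkhead probe sets lower, 0 to 1 FOXO regulators lower, 1 to 3 FOXO targets higher and 3 to 4 lower, 9 to 12 FOXM1 targets lower and 0 to 1 FOXM1 partners higher. Median log2 differences then ran from 0.000409 to 0.0271 for the FOXO, FOXP, FOXK and FOXM1 class, 0.0210 to 0.0535 for FOXO regulators, -0.0101 to 0.0174 for FOXO targets and -0.0644 to -0.0248 for FOXM1 partners. With the most variable probe set these 4 medians were -0.0128, 0.0767, 0.0133 and -0.0688, that of FOXM1 targets was -0.21, FOXO regulators were called 1 higher and 2 lower, and 1 FOXM1 partner was lower. FOXA3 was then not called (adjusted p = 0.0739) at the same difference. Without _s_at and _x_at probe sets the class median was -0.00431 and that of FOXO regulators 0.0134. With array weights 3 forkhead probe sets and 1 FOXM1 partner were lower. The labels do not say whether same-numbered samples were prepared as pairs. Deviations of same-numbered arrays correlated at -0.0385, -0.0594 and -0.00103. These values show no shared replicate effect but cannot tell how the samples were prepared. With the replicate block 1 member was higher (FOXN3; FOXA3 adjusted p = 0.0732), 0 forkhead probe sets and 0 FOXO regulators were lower. Over all 18132 genes, leaving out 1 array gave 553 to 812 higher and 395 to 590 lower. The replicate block gave 596 and 440, and the fit of all 6 arrays without it 1154 and 840. The causes were not tested. Absent absolute signals, distance from background could not be used as a filter.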
